A study of Sordaria macrospora with 8 samples.

Results

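Among the 7117 H3K56ac peaks listed for Δasf1, 808 (11.4%, 95% Wilson interval 10.6–12.1%) were not overlapped by a single base of any of the 7430 peaks listed for the wild type. These 808 intervals are called gained peaks here, and the 6309 peaks that touched a wild-type peak are called the other Δasf1 peaks. Together they covered 784154 bp, which was 5.27% of all bases under Δasf1 peaks. The name describes the overlap of the lists only: a stretch with no listed wild-type peak is not shown to lack acetylation, since the lists hold no value outside their peaks.

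Chromatin of the filamentous fungus Sordaria macrospora was precipitated through histone H3 carrying an acetyl group on lysine 56, from Δasf1 (spelled delta-asf1 in the labels) grown for 3 days and from the wild type grown for 2 days. Both were kept in liquid culture in complete medium, under constant light at 27 °C, and for each strain there were 2 precipitated samples and 2 inputs. Mycelium was cross-linked with 1% formaldehyde for 15 min and chromatin was cut for 105 min by micrococcal nuclease (230 U/ml), with 10 µl of antibody in each precipitation. A genotype and its growth time go together in every sample, so their parts in any difference cannot be told apart. The labels do not name the isolate used. The study describes a duplication on chromosome 2 in its Δasf1 strains, and the duplicated stretches are treated below.

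H3K56ac sits on the lateral surface of the nucleosome, close to where DNA enters and leaves it. In Saccharomyces cerevisiae the mark is placed on newly made H3 by the acetyltransferase Rtt109, which acts on H3 held by the histone chaperone Asf1, and the acetylated histones are handed on for assembly into nucleosomes behind replication forks and at sites of histone exchange. ASF1 binds the H3-H4 dimer and takes part in chromatin assembly and disassembly. Peaks that appear in the list of a strain without this chaperone were therefore examined for their size, their position between wild-type peaks and the genes beneath them. By Western blot, the study reported a significant global decrease of H3K56ac in Δasf1. Peak lists do not measure the total level of the mark, so gained peaks do not show a rise in it.

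There was 1 peak list per strain, with no value for single replicates and no read depth, and the peak names of a list carry 1 library code, so it is uncertain whether a list stands for both replicates. The gained peaks were selected on their measured positions, by presence in the Δasf1 list and absence from the wild-type list, so all values below describe them and no test was run. The intervals cover counting only and treat peaks as independent, although neighbouring peaks share libraries and chromosome position. The share of gained peaks also depended on how strictly peaks were called. A −log10 q of at least 3 left 2699 Δasf1 peaks. Of these, 1856 (68.8%) had no wild-type partner when the limit was asked of both lists, and 101 (3.74%) had none when it was asked of Δasf1 only. The median −log10 q was 1.85 for gained peaks and 2.75 for the other Δasf1 peaks, and 2.21 over the wild-type list.

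Gained peaks were narrow. Their median width was 798.5 bp (95% interval of the median 744–858 bp, n = 808), against 1661 bp (1619–1703 bp, n = 6309) for the other Δasf1 peaks. The middle 50% of widths lay between 483 and 1228.5 bp for gained peaks and between 948 and 2943 bp for the other peaks, so the distributions overlapped. The whole range was 266–4632 bp for gained peaks and 266–27825 bp for the others. Widths under 1000 bp were found for 507 gained peaks (62.7%) and 1721 of the others (27.3%), and widths of at least 3000 bp for 16 gained peaks (1.98%) and 1535 of the others (24.3%). The gained peaks had the lower median width on 7 of 7 chromosomes. A wide peak offers more bases on which an overlap can fall, so width and the rule that chose the peaks are not independent. With a −log10 q of at least 3 asked of both lists, the medians were 1866.5 bp for gained peaks and 1998 bp for the others. With that limit asked of Δasf1 only, they were 756 bp (631–858 bp) and 1983 bp (1895–2078 bp).

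**Figure D1:**
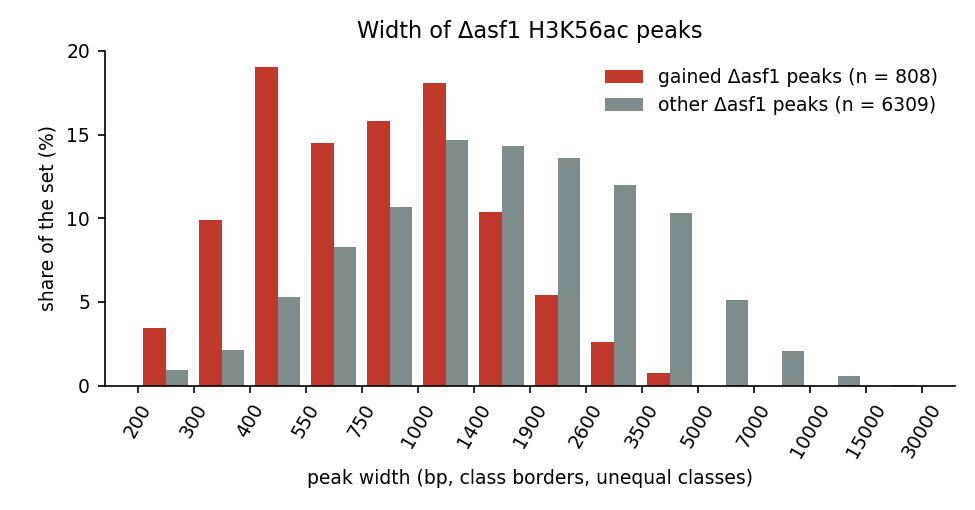
Width of Δasf1 H3K56ac peaks in unequal classes (bp), as the percent of each set; bars on the left of each pair are the 808 gained peaks, bars on the right the 6309 other Δasf1 peaks. Most gained peaks (62.7%) are under 1000 bp wide and few (1.98%) reach 3000 bp, against 27.3% and 24.3% of the other peaks.

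With the Δasf1 list divided by width into 10 classes of about equal number, the share of gained peaks was lower in each wider class. It was 34.3% (244 of 712) in the narrowest class, of 266–529 bp, and 0.281% (2 of 712) in the widest, of 4422–27825 bp. With 10 classes of fold enrichment, the signal over the local background as the peak caller gave it, the share was 34.6% (246 of 712) in the lowest, 3.24% in the eighth and 4.63% (33 of 712) in the highest class. The fold of gained peaks had a median of 1.22 (quartiles 1.19 and 1.25, range 1.14–1.47), against 1.26 (1.23 and 1.30, range 1.13–1.60) for the other Δasf1 peaks. Gained peaks had the lower median fold on 7 of 7 chromosomes, and the quartile ranges of both sets overlapped. A −log10 q under 2 was given to 466 gained peaks (57.7%) and 1403 other peaks (22.2%), and one of at least 3 to 101 (12.5%) and 2598 (41.2%).

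**Figure D2:**
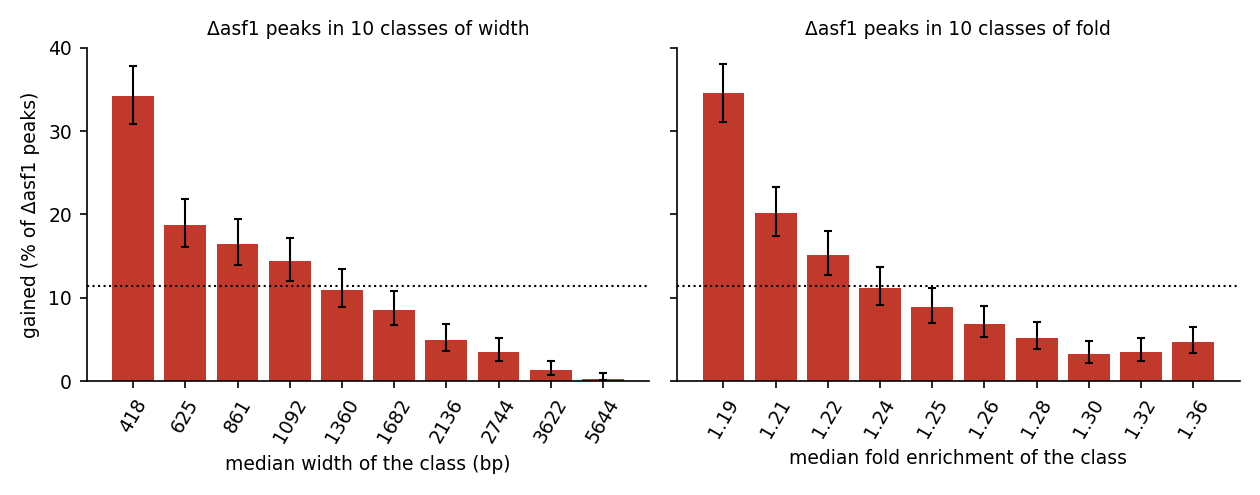
Percent of Δasf1 peaks that were gained, in 10 classes of peak width (left) and of fold enrichment (right), with 95% Wilson intervals; ticks give the median of each class and the dotted line the share over all 7117 peaks (11.4%). The share drops with width to 0.281% in the widest class, and with fold to 3.24% in the eighth class and 4.63% in the highest.

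Weak peaks did not make up all of the gained set. In the highest class of fold, the 33 gained peaks had a median width of 583 bp and 14 of them (42.4%) were under 530 bp, against a median of 1594 bp and 66 (9.72%) among the 679 other peaks of that class. The highest fold, 1.47 with a −log10 q of 7.74, was that of a 313-bp peak at chr6:2014535-2014847 over SMAC4_04923. A 334-bp peak at chr6:1410588-1410921, over SMAC4_06034, had a fold of 1.44, and a 405-bp peak at chr2:6226308-6226712, over SMAC4_07960, one of 1.43. Folds of 1.42 were given to a 1603-bp peak at chr1:8971402-8973004, over SMAC4_13158 and SMAC4_13159, and to a 307-bp peak at chr1:3203092-3203398, over SMAC4_04319. Of these 5 peaks, 4 were 405 bp wide or less. SMAC4_04923 and SMAC4_06034 also carried a wild-type peak at another position.

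The widest gained peak, at chr7:148644-153275, was 4632 bp wide with a fold of 1.21 and lay on SMAC4_07745, a gene with a wild-type peak elsewhere. The next, of 4516 bp at chr2:170621-175136, lay on SMAC4_06904, which carried no wild-type peak. A 3978-bp peak at chr7:108153-112130 covered parts of SMAC4_07736 and SMAC4_07737, and a 3921-bp peak at chr1:7879819-7883739 lay on SMAC4_00424, none of which had a wild-type peak. Folds of the 8 widest gained peaks were 1.19–1.28, beside a median of 1.22 over all gained peaks.

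Gained peaks mostly stood clear of their wild-type neighbours. The median distance to the nearest wild-type peak was 1516.5 bp (95% interval 1464–1582 bp, range 1–12181 bp), and 400 of the 808 (49.5%) lay from 1000 to under 2000 bp away. Only 49 (6.06%) were closer than 500 bp and 9 closer than 100 bp, while 29 (3.59%) were more than 5000 bp away. On the larger side, the median distance to the next wild-type peak was 3473 bp. Peaks within a list also kept apart: the smallest spacing was 1066 bp in the Δasf1 list and 1084 bp in the wild-type list. The nearest Δasf1 peak stood at a median of 1771.5 bp from gained peaks and 1671 bp from the other Δasf1 peaks. Where a flanking wild-type peak is also covered in Δasf1, this spacing limits how near a gained peak can lie. The distances to the wild type are therefore not independent of how peaks were called. At the border of the rule, the nearest members stood 1, 11, 11 and 14 bp from a wild-type peak, and the closest peaks left out shared 2, 3, 6 and 7 bp with one. In all, 101 of the other Δasf1 peaks (1.60%) shared less than 100 bp.

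The most remote gained peak was chr1:9237949-9239127, 1179 bp wide with a fold of 1.18, at 12181 bp from the nearest wild-type peak. It overlapped no gene, and SMAC4_09089 was nearest at 4861 bp. A second peak, chr1:9243324-9244560, lay on SMAC4_09089 in the same gap, 8084 bp from a wild-type peak. On chromosome 4, chr4:50729-51045 on SMAC4_08625 was 12073 bp away, and on chromosome 6, chr6:33096-33385 on SMAC4_13881 was 7441 bp away. The other 4 of the 8 most remote peaks lay 6636–6937 bp from the wild type, on SMAC4_08555, SMAC4_09760, SMAC4_07266 and SMAC4_03864. None of the 7 genes named here had a wild-type peak, which is likely from the choice of peaks far from the wild type.

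**Figure D3:**
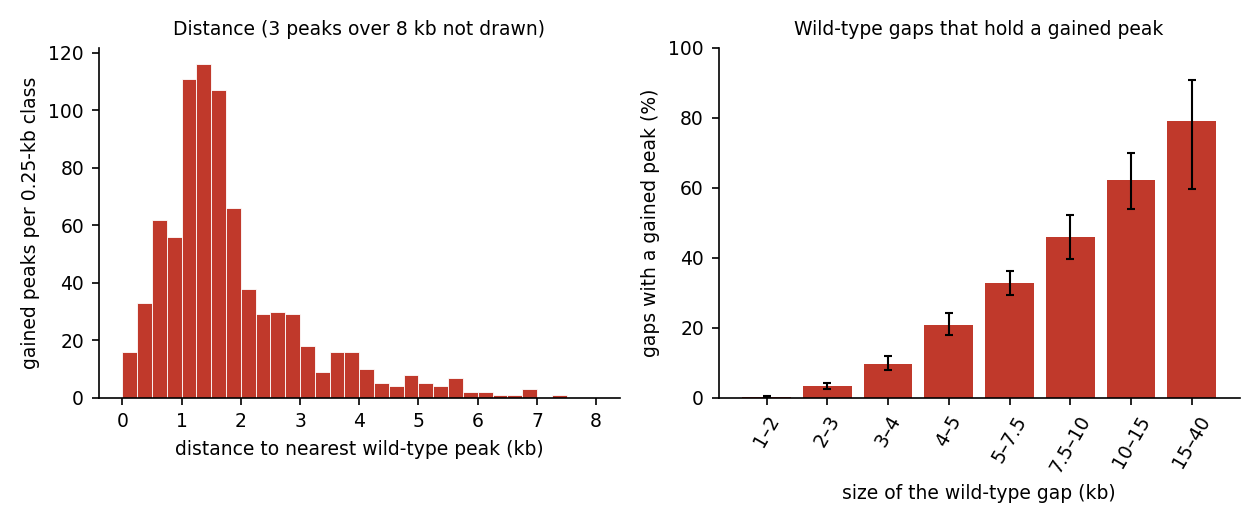
Left, number of gained peaks by distance to the nearest wild-type peak (kb, 0.25-kb classes). Right, percent of the gaps between wild-type peaks that held a gained peak, by gap size (kb), with 95% Wilson intervals; it goes from 0.243% of gaps of 1–2 kb to 79.2% of those of 15 kb or more.

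Of the 7423 gaps between successive wild-type peaks, 719 (9.69%) held a gained peak. Their median size was 5729 bp (95% interval 5487–6063 bp), against 2041 bp (1992–2083 bp) for gaps without one. Sizes ranged from 1383 to 30725 bp for gaps with a gained peak and reached 19085 bp for the rest. A gained peak was in 8 of 3294 gaps of 1–2 kb (0.243%), 128 of 614 of 4–5 kb (20.8%), 109 of 238 of 7.5–10 kb (45.8%) and 19 of 24 of 15 kb or more (79.2%). A longer gap has more room for a peak, and the shares are not adjusted for it. Peaks of the Δasf1 list lay at least 1066 bp apart. A gap of 1–2 kb between kept wild-type peaks therefore leaves little place for a separate gained peak. Of the 20 longest gaps, 16 held a gained peak.

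Most of these gaps held a single gained peak (647), while 57 held 2, 13 held 3 and 2 held 4. The gained peaks left most of each gap without a peak: they filled a median of 15.3% of it (quartiles 9.48% and 23.9%, highest 65.5%). The longest gap, chr4:32394-63118 with 30725 bp, held 2 gained peaks that filled 3.46% of it, on SMAC4_08625 and SMAC4_13592. In the next, chr1:9225768-9252644 with 26877 bp, 3 gained peaks filled 12.3%. A gap of 23838 bp at chr4:101102-124939 held 1 gained peak, chr4:121492-123343 on SMAC4_04531. Gained peaks lay on SMAC4_09027 and SMAC4_09029 in a gap of 20359 bp on chromosome 6, and on SMAC4_05420, SMAC4_05419 and SMAC4_05418 in a gap of 18778 bp on chromosome 1.

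The wild-type peaks on either side were often present in Δasf1 too. Both flanking wild-type peaks overlapped a Δasf1 peak for 488 gained peaks (60.4%), 1 of them for 265 (32.8%) and neither for 55 (6.81%). By gap, both flanks were kept in 439 of the 719 gaps with a gained peak (61.1%) and in 4728 of those without one (70.5%). Neither flank was kept in 43 (5.98%) and 211 (3.15%). A gap bridged whole by a Δasf1 peak keeps its flanks and cannot hold a gained peak. Of the gaps without a gained peak, 670 (9.99%) were bridged in this way, so these shares are not independent of the rule. The wild-type peak nearest to a gained peak had no Δasf1 partner in 217 cases (26.9%), against 16.9% (1255 of 7430) over all wild-type peaks. The first share is per gained peak and the second per wild-type peak. Gained peaks lay at least 1066 bp from any other Δasf1 peak, which favours a close wild-type peak without a partner. This comparison is therefore not independent of the rule either. Those 1255 wild-type peaks had a median width of 931 bp and a median fold of 1.22 within their own list.

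Most gained peaks had other Δasf1 peaks as neighbours, and 216 of them (26.7%) stood in runs of 2 or more. Of 687 runs of successive gained peaks in the Δasf1 list, 592 were single peaks, 75 had 2 peaks, 16 had 3, 3 had 4 and 1 had 6. A gained peak was followed by another in 121 of 808 cases (15.0%, 12.7–17.6%), against 687 of 6302 (10.9%, 10.2–11.7%) for the other Δasf1 peaks. This contrast depended on the settings. Without 100 kb at chromosome ends, the shares were 13.2% and 10.6%, with overlapping intervals. Intervals also overlapped at a −log10 q of at least 3, in both lists or in Δasf1 only. The same held with peaks under 50% covered counted as gained. Intervals stayed apart with equal list lengths, the unique list, or a distance of at least 500 bp. They also stayed apart without the duplicated stretches and rRNA genes. In 29 of the 95 runs of 2 or more (30.5%), wild-type peaks lay between the gained peaks, 44 in all. A wild-type peak inside a run has no Δasf1 partner by definition, since a partner would break the run.

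The longest run, 6 gained peaks at chr4:5052363-5083731, spanned 31369 bp and ended 30724 bp from the end of the assembled chromosome. Its peaks were 516–3886 bp wide with folds of 1.16–1.29, and 3 wild-type peaks lay between them. Of the 12 genes within the span, 8 lay under a gained peak, SMAC4_07854 to SMAC4_07859 together with SMAC4_13706 and SMAC4_13707, and 7 of the 8 carried no wild-type peak. The second run, chr1:53425-70448, had 4 gained peaks on SMAC4_08493, SMAC4_08494, SMAC4_08495 and SMAC4_08498, with 2 wild-type peaks between them. The third run, chr3:5668278-5681455, placed 4 gained peaks in 1 wild-type gap of 18179 bp, over SMAC4_07264 to SMAC4_07268. The 4 gained peaks at chr6:4149330-4162239 shared a gap of 14901 bp and lay on SMAC4_08553, SMAC4_08554, SMAC4_08555 and SMAC4_08558. The files give these genes no product, so no function is named.

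**Figure D4:**
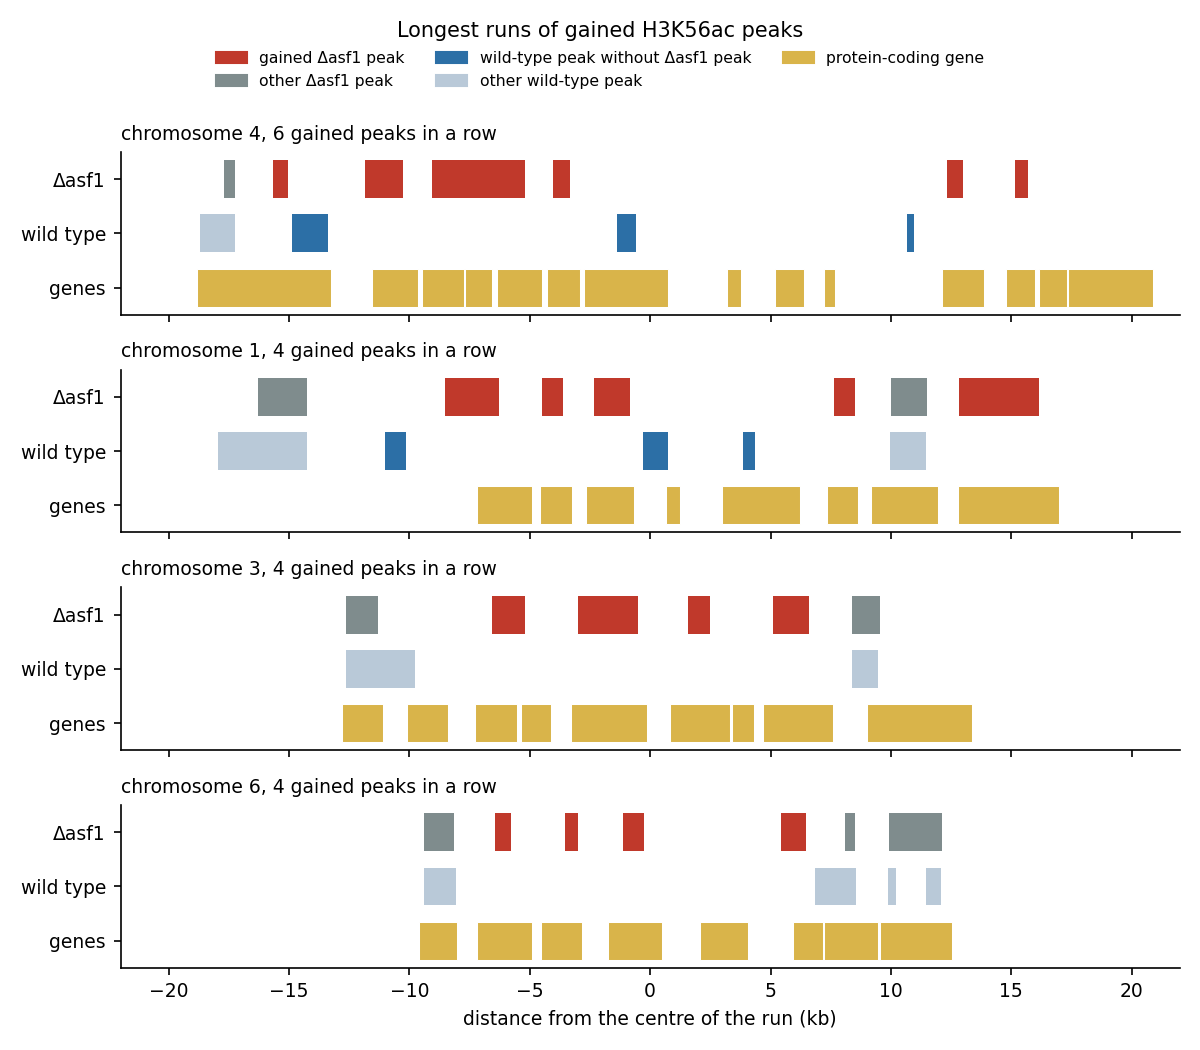
The 4 longest runs of gained peaks, drawn by distance from the centre of the run (kb): Δasf1 peaks above, wild-type peaks in the middle, protein-coding genes below. The top run holds 6 gained peaks around 3 wild-type peaks, and the runs on chromosomes 3 and 6 lie in stretches with no wild-type peak. Wild-type peaks inside a run have no Δasf1 partner by the definition of a run.

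All 7 chromosomes carried gained peaks at similar shares. The share ran from 10.4% (78 of 748) on chromosome 7 to 12.3% (209 of 1693) on chromosome 1, with intervals of 8.44–12.8% and 10.9–14.0% that overlapped. There were 19.1–22.4 gained peaks per Mb, and 347 of 398 windows of 100 kb (87.2%) held at least 1. The fullest windows were chr1:1-100000 with 9 gained of 18 Δasf1 peaks, chr4:5000001-5100000 with 9 of 16, and chr3:5600001-5700000 with 7 of 17. All 3 are at or near a chromosome end, and each holds one of the runs described.

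By distance from the chromosome ends, the share was uneven. It was 5.08% (3 of 59, 1.74–13.9%) within 25 kb, 43.5% (20 of 46, 30.2–57.8%) from 25 to 50 kb, 29.6% (37 of 125) from 50 to 100 kb, 17.7% (43 of 243) from 100 to 200 kb and 10.1% (468 of 4636) beyond 1000 kb. The 20 gained peaks at 25–50 kb came from 10 of the 14 ends, with at most 4 from 1 end, and leaving out each chromosome in turn gave 37.8–48.7%. Among wild-type peaks, the share without a Δasf1 partner was 27.8% (10 of 36, 15.85–43.99%) at 25–50 kb and 15.7% beyond 1000 kb. At 25–50 kb this interval overlapped that of the gained share. The wild type had 36 peaks at 25–50 kb, against 60 in the equally long band within 25 kb. Fewer wild-type peaks leave longer gaps, which held gained peaks more often, and the band shares are not adjusted for it. Whether the spacing of wild-type peaks accounts for the share at 25–50 kb was not tested. Distances were measured from position 1 and, on the right, from the outermost gene or peak. The right end of chromosome 2, counted among the 14, is largely taken up by rRNA genes (chr2:6311210-6390603). Without chromosome 2, the share at 25–50 kb was 43.9%.

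**Figure D5:**
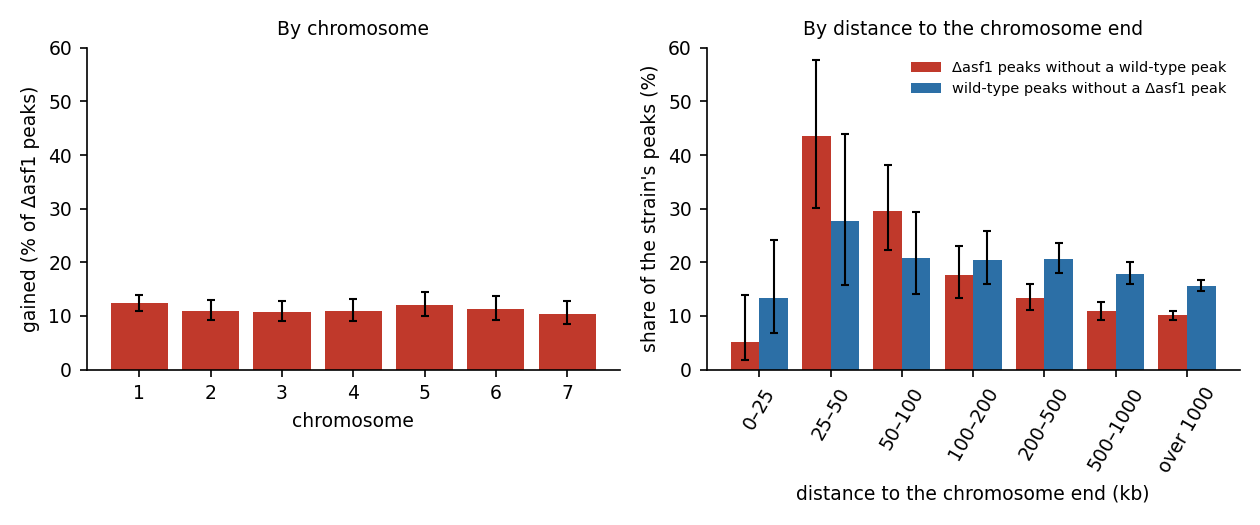
Left, gained peaks as percent of Δasf1 peaks on each of the 7 chromosomes (10.4–12.3%). Right, by distance to the chromosome end (kb), gained peaks as percent of Δasf1 peaks beside wild-type peaks without a Δasf1 partner as percent of wild-type peaks; error bars are 95% Wilson intervals, and at 25–50 kb the shares are 43.5% and 27.8%.

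Most gained peaks lay on genes. A protein-coding gene was overlapped by 662 gained peaks (81.9%) and 5754 other Δasf1 peaks (91.2%). Exactly 1 gene was touched by 617 gained peaks (76.4%) and 4260 others (67.5%), and 3 or more by 1 gained peak and 395 others (6.26%). Whole peaks inside a single gene made up 455 gained peaks (56.3%) and 2718 others (43.1%). A narrow peak touches fewer genes and fits inside 1 gene more easily, so these counts per peak are not independent of width. By bases, 72.2% of gained sequence and 78.4% of the other peaks' sequence was in genes, which cover 58.0% of the assembly. The 146 gained peaks between genes had a median width of 706 bp, against 825.5 bp for those on genes.

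Of 10309 protein-coding genes, 695 (6.74%) lay at least partly under a gained peak. No wild-type peak touched 491 of them (70.6%), while 204 (29.4%) had one elsewhere in the gene. Over all 10309 genes, 2016 (19.6%) had no wild-type peak. The rule places gained peaks between wild-type peaks, so the share among the genes beneath them is not independent of the selection. Read from the other side, 750 of these 2016 genes (37.2%) had a Δasf1 peak and 491 (24.4%) a gained one. The 491 genes had a median span of 1776 bp, against 1310 bp for all genes without a wild-type peak, and a gained peak covered a median of 41.7% of the gene. Longer genes offer more bases to overlap, so the spans are not independent of these counts.

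No gained peak lay on a tRNA or rRNA gene. Among 808 gained peaks, 0 overlapped a tRNA gene, with a Wilson interval that reaches 0.473%. Of the 6309 other Δasf1 peaks 23 did (0.365%), so a difference was not detectable with these numbers. For rRNA genes the counts were 0 and 10. In the duplicated stretches of chromosome 2, 3 of 41 Δasf1 peaks were gained in the first (7.32%, chr2:686748-916181) and 2 of 33 in the second (6.06%, chr2:1076544-1262480), with Wilson intervals of 2.52–19.4% and 1.68–19.6% that both hold the 11.4% of the whole list.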

How the data were processed

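Peak lists of 2 strains were analysed. Per the labels the authors trimmed reads with fastp, aligned them with Bowtie2 and called peaks with MACS2; versions are not given in the sources used here. The deposited lists hold a score, a fold enrichment (a linear ratio over local background), and a −log10 p and −log10 q for each peak; the −log10 p was not used, and the score only to equalise list lengths. Start positions were counted from 1. The 4 inputs and the reads were not analysed here, nor was the list of unique wild-type peaks.

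Peaks were compared in Python 3.11.15 with NumPy 2.4.6, pandas 2.3.3, SciPy 1.17.1 and Matplotlib 3.10.9. A shared peak had an overlap of at least 1 bp. Shares carry Wilson intervals and medians binomial order-statistic intervals, at 95%. Scripts were tested on simulated data. Genes came from RefSeq assembly ASM3387043v1 of strain SN1693; 78.1% of Δasf1 peak bases lay in genes, against 59.5%, 58.7% and 58.4% when shifted by 5000, 10000 and 20000 bp. The table gives neither strand nor product, so the lists by product were not applied except for tRNA and rRNA genes. Chromosomes were taken to end at the last gene or peak.

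Genes were named under the 8 most remote, 8 widest and 5 highest-fold gained peaks, in the 5 longest wild-type gaps with a gained peak and in the 4 longest runs. From the 8 widest, only the first 4 are described singly. Members and lists were chosen with earlier results of these data known. Leaving out each chromosome for the 25–50 kb band was added after seeing the data.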

Additional observations from a re-analysis of the deposited data

How the results depend on the processing

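Of 82 values under the alternatives set at the start, 39 stayed within the 95% interval of the first value, 5 counts of gained peaks (748–931) stayed within 1.5 times the first count, and 38 moved; the 7 added values stayed within the interval. With a −log10 q of at least 3 in both lists, 1856 peaks were gained, with a median width of 1866.5 bp (1998 bp for the others), a distance of 9094.5 bp and a gap of 31071.5 bp. A gained peak followed 69.8% of gained and 67.0% of other peaks, the share per chromosome was 66.5–70.5%, and 95.7% overlapped a gene. Fewer wild-type peaks widen the gaps by construction. With that limit for Δasf1 only, 101 were gained, the other peaks had a median width of 1983 bp, a gained peak followed 3.96% of gained and 3.74% of other peaks, chromosomes had 1.82–5.96%, and 90.1% overlapped a gene. Counting peaks under 50% covered as gained gave 1847 peaks of 1243 bp (others 1616 bp) at a median distance of 0 bp, with 27.2% of gained and 25.5% of other peaks followed by one, 23.6–28.8% per chromosome and 86.2% on genes. The list of unique peaks gave a width of 870.5 bp, a distance of 1395 bp, 12.5% of other peaks followed by a gained one and 14.1% on the highest chromosome. Equal list lengths gave 1586 bp, a gap of 6095 bp, 17.7% and 12.4% followed, and 14.0%. Per peak, the median gap was 6183 bp, and a next gained peak within 10 kb was found for 22.3%. The centre lay in a gene for 73.9% of gained peaks and 78.3% of the other Δasf1 peaks. For the equal lists and the unique list, the cause was not tested here.

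No paired analysis was possible because each strain had a single list, and for that reason no replicate was left out. The gap size has no value for peaks under 50% covered or for the list of unique peaks, since peaks that touch a wild-type peak lie in no gap. Depth per sample is unknown, and a peak just under the caller's limit in the wild type cannot be seen.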

Other observations

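The deposited list of unique Δasf1 peaks holds 920 peaks, all of them also in the pooled list. It contains all 808 gained peaks and 112 more that touch a wild-type peak, of which at most 25.9% of the bases were covered.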
